A study of Xenopus laevis with 6 samples.

Results

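The genes described here are the Hox genes of the African clawed frog Xenopus laevis, taken as every gene row whose name is hox followed by a cluster letter (a to d) and a number. The rule found 66 rows of 45099 in all, which are the L and S copies (homeologs, from the species' 2 ancestral subgenomes) of 33 genes. Of the RefSeq names for this species, hoxa2, hoxa10, hoxb9, hoxc6 and hoxc10 were not analysed here. The rows were read in single whole embryos at stage 11.5, in mid to late gastrulation, by sequencing of polyadenylated RNA. In the dkk group (n = 3), both blastomeres of the 2-cell embryo had been given dkk mRNA by injection on the animal side, at 100 pg, and the control embryos (n = 3) stayed uninjected. Dickkopf is a secreted antagonist of the Wnt co-receptors Lrp5 and Lrp6. The embryos came from 3 matings, each of which gave 1 dkk embryo and 1 control, called pairs 1 to 3. The controls carried no injected RNA, so the effects of dkk and of injection itself cannot be told apart.

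Hox genes encode homeodomain transcription factors that give cells their position along the head-to-tail axis. In vertebrates they lie in clusters named A to D, and genes with the same number in different clusters are called paralogues. Low-numbered genes at the 3' end of a cluster are generally switched on first and reach furthest towards the head, and high-numbered genes follow later and further back. In Xenopus the paralogue 1 genes are active in the gastrula, in non-organizer mesoderm and in the adjoining ectoderm, and hoxd1 has been described there as a gene that responds to Wnt and to retinoic acid.

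Reads in genes numbered 17460820 to 19880568 per library, and a count of 0 in a library allows an expected count of up to 3 reads, or 0.136 to 0.175 CPM (the read count scaled to the TMM-normalised library size). The labels were checked on dkk1.S, which stood at 511, 473 and 725 CPM in dkk embryos 1 to 3, against 11.9, 19.9 and 13.9 CPM in controls 1 to 3. Of the gastrula genes listed, 3 of 14 tested rows fell and 1 rose, beside 0.467% and 0.106% of all tested genes. Gastrula genes were read in every group, among them t.S (brachyury) at 230 ± 20.0 CPM in dkk embryos and 501 ± 34.8 CPM in controls (SD, n = 3 each), while no haemoglobin row of hba1 or hbg1 averaged above 0.259 CPM in either group. The other gene listed for later tissues, myh6, was not that low and was read in every library. Its row myh6.L had 103, 68 and 39 reads in dkk embryos and 87, 52 and 32 reads in controls. The row myh6.S had 153, 53 and 16 reads in dkk embryos and 155, 32 and 24 reads in controls. RNA came from whole embryos, so fewer cells of a type and less RNA per cell cannot be told apart.

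All Hox rows together took 24.8, 31.3 and 9.79 CPM in dkk embryos 1 to 3, against 262, 252 and 174 CPM in controls 1 to 3. The groups did not overlap, and the summed level in dkk embryos was 9.56% of that in controls. Most of that difference lay in paralogue 1, the 3'-most genes. The 6 rows of that number summed to 7.77, 7.30 and 1.59 CPM in dkk embryos, against 234, 212 and 157 CPM in controls. Most of the control sum came from 1 gene, with means of 91.7 CPM in hoxd1.L and 88.7 CPM in hoxd1.S, out of 201 CPM for paralogue 1. The other 60 rows summed to 17.1, 24.0 and 8.21 CPM in dkk embryos and to 28.2, 40.8 and 17.5 CPM in controls, so these groups overlapped, although each dkk embryo stood below the control of its pair.

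The make-up of the Hox reads differed between the groups. Paralogue 1 held 31.3%, 23.4% and 16.2% of the Hox reads in dkk embryos, against 89.3%, 83.8% and 90.0% in controls. Paralogues 4 to 8, from the middle of the clusters, held 40.0%, 47.6% and 34.3% in dkk embryos and 6.25%, 9.90% and 4.93% in controls. Paralogues 9 to 13, from the 5' end, held 7.56%, 13.4% and 30.6% in dkk embryos and 1.25%, 2.27% and 1.89% in controls. These are shares of reads, not corrected for transcript length, so they do not rank the genes by transcript number. A larger share is also not a higher level. The summed CPM of paralogues 9 to 13 was 1.88, 4.18 and 2.99 in dkk embryos, against 3.27, 5.71 and 3.29 in controls. That of paralogues 4 to 8 was likewise lower in the dkk embryo of every pair.

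**Figure D1:**
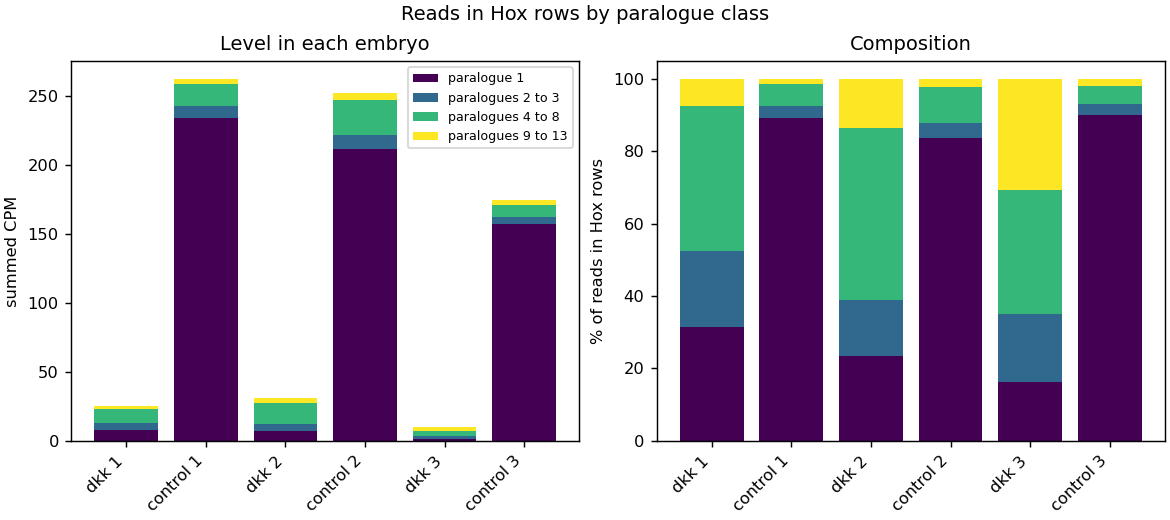
Summed CPM (left panel) and percentage of the reads in Hox rows (right panel) for 4 classes of paralogue number, 1 stacked bar per embryo, with each dkk embryo beside the control of its pair. Paralogue 1 fills 83.8% to 90.0% of the control bars and 16.2% to 31.3% of the dkk bars.

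The log2 ratios of dkk over control for these sums, taken pair by pair with a prior count of 2 reads, were compared next. For paralogue 1 they were -4.89, -4.84 and -6.54. For paralogues 2 to 3 they were -0.69, -1.03 and -1.53, and for paralogues 4 to 8 they were -0.72, -0.74 and -1.33. The ratio of paralogue 1 was thus the lowest of all classes in every pair. For paralogues 9 to 13 the ratios were -0.77, -0.44 and -0.13. No test was made across classes, since a class is a sum over a few genes of uneven depth.

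**Figure D2:**
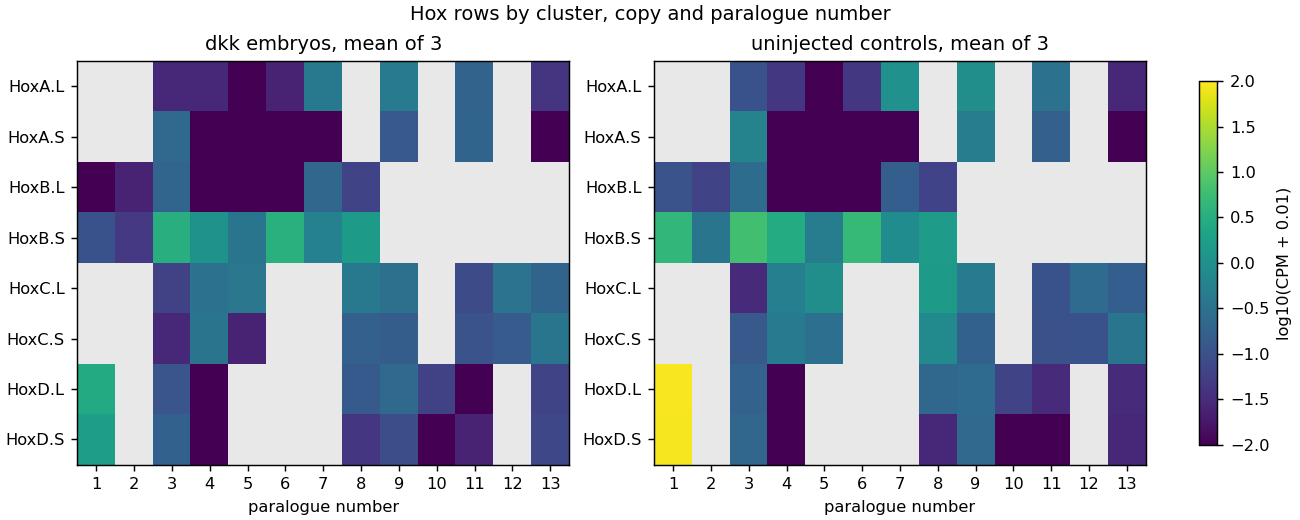
Mean level of each Hox row, as log10(CPM + 0.01), by cluster and copy (vertical) and paralogue number (horizontal), in dkk embryos (left, n = 3) and uninjected controls (right, n = 3); grey marks positions not shown or with no row analysed here. The brightest control positions, hoxd1.L at 91.7 CPM and hoxd1.S at 88.7 CPM, stand at 2.75 CPM and 1.68 CPM in dkk embryos.

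Single genes were tested with edgeR's quasi-likelihood test, with a block for the mating and Benjamini-Hochberg adjustment over all 21643 genes left by a filter on low counts, at a threshold of 0.05. The filter left 13 of the 66 Hox rows, and the other 53 stayed below it. Of the 13, 3 fell, among them hoxb1.S and hoxd1.L, 0 rose and 10 did not pass. Over all tested genes, 0.467% were called lower and 0.106% higher, or 0.573% in either direction. With no filter, 54 Hox rows were tested and the same 3 were called, beside 0.643% of genes. With L and S copies summed, 3 Hox genes were called, hoxb1 and hoxd1 among them, beside 0.382% of genes. Without the block hoxd1.L alone was called, beside 0.0601% of genes. At an unadjusted p under 0.05, 10 of the 13 were lower, beside 4.19% of all tested genes, and 0 were higher. DESeq2 and limma-voom also called 0 Hox rows higher. The median log2 fold change was -1.68 over the 13 rows and -0.00 over all tested genes. With no filter it was -0.80 over the 54 Hox rows, of which 42 were negative and 12 positive. The filter asks for 3 libraries at its level, and of the 13 only hoxb3.S and hoxd1.L reached it in all 3 dkk embryos. All others passed only with control libraries, and hoxb1.S reached the level in controls alone. The counts over the 13 thus lean towards rows that are high in controls.

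hoxd1, the 3'-most gene of cluster D, gave the most Hox reads in controls. The L copy hoxd1.L had 74, 55 and 27 reads in dkk embryos 1 to 3, against 1779, 1862 and 1385 reads in controls 1 to 3. Every dkk embryo lay far below every control, at 3.00% of the mean control CPM (2.75 ± 1.40 CPM in dkk embryos and 91.7 ± 18.8 CPM in controls, SD, n = 3 each). Its log2 fold change was -5.14 ± 0.24 (SE; adjusted p = 0.000175 by edgeR, Benjamini-Hochberg).

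The S copy hoxd1.S had 37, 51 and 5 reads in dkk embryos, against 1722, 1711 and 1433 reads in controls. These groups did not overlap either, and dkk embryo 3 stood lowest. The level was 1.68 ± 1.33 CPM in dkk embryos and 88.7 ± 14.5 CPM in controls (SD, n = 3 each). The log2 fold change of -5.91 ± 0.59 did not pass (adjusted p = 0.0588 by edgeR, Benjamini-Hochberg). It passed in limma-voom (adjusted p = 0.00367), in DESeq2 (adjusted p = 1.39e-10) and in edgeR without pair 3 (adjusted p = 0.000131), where the log2 fold change was -5.32. It did not pass in edgeR without pair 1 (adjusted p = 1.00), without pair 2 (adjusted p = 0.107), with no filter (adjusted p = 0.379) or without the block (adjusted p = 0.0901). Its ratios were -5.59, -4.98 and -7.77 in pairs 1 to 3, so pair 3 stood apart from the others in size and not in direction.

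hoxb1, the cluster B member, is known for its part in hindbrain identity. The S copy hoxb1.S had 1, 4 and 0 reads in dkk embryos, against 127, 82 and 32 reads in controls. Its level in dkk embryos was near the floor of a single library, at 0.0921 ± 0.116 CPM, against 4.49 ± 2.89 CPM in controls (SD, n = 3 each). The controls themselves spread 4.57-fold, with control 1 highest and control 3 lowest, and all were above the dkk embryos. The log2 fold change was -5.56 ± 0.60 (adjusted p = 0.00929 by edgeR, Benjamini-Hochberg), and without the block the log2 fold change was -5.58 and the call was lost (adjusted p = 0.252 by the same test). It was called without any 1 of the pairs, but its size moved, to -4.90 without pair 1, -7.12 without pair 2 and -5.33 without pair 3. The L copy hoxb1.L had 0 reads in all 3 dkk embryos and 4, 1 and 0 reads in controls, too few for a fold change.

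**Figure D3:**
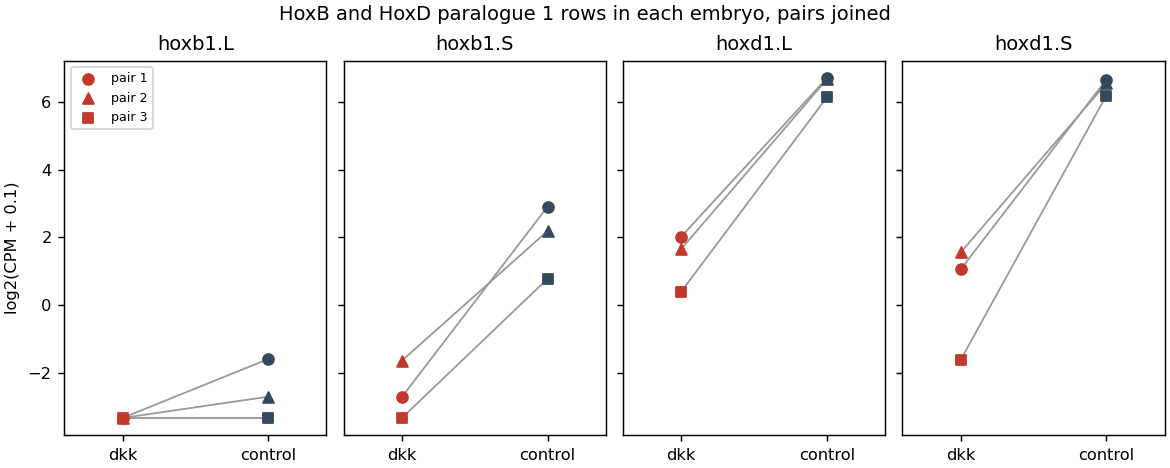
Level of hoxb1 and hoxd1 rows in each embryo, as log2(CPM + 0.1), with dkk embryos (red) left of controls (dark blue) and a line joining each pair. In hoxb1.S, hoxd1.L and hoxd1.S every dkk point lies below every control point, and hoxb1.L is near the bottom in both groups.

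DESeq2 and edgeR without pair 3 each called 5 Hox rows lower, with 1.21% and 1.50% of all tested genes, and limma-voom called 4, with 0.536%. All these settings called hoxb1.S, hoxd1.L and hoxd1.S. The authors' deposited table of 97 genes holds these rows too. In the authors' deposited table the log2 fold changes are -1.61 for hoxb1.S, -3.22 for hoxd1.L and -2.35 for hoxd1.S. Those fold changes are smaller in size than the ones computed here. The adjusted p-values there, from the authors' own DESeq comparison, are 2.25e-05, 6.15e-26 and 7.95e-12 in the same order. That comparison thus calls hoxd1.S, which did not pass in edgeR here. The name of the deposited table refers to DESeq, and its version and model terms are not stated there.

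Paralogues 2 and 3 specify hindbrain and neck levels. The group 3 row hoxb3.S had 83, 67 and 30 reads in dkk embryos, against 106, 141 and 94 reads in controls. Every dkk embryo was below every control, at 51.3% of the mean control CPM. Its log2 fold change was -1.08 ± 0.31 and did not pass (adjusted p = 0.311 by edgeR, Benjamini-Hochberg). Its partner hoxb3.L had 2, 6 and 3 reads in dkk embryos and 7, 6 and 0 reads in controls, with no common direction. Of the rows below the filter, hoxa3.S had 6, 4 and 3 reads in dkk embryos and 12, 13 and 8 reads in controls. hoxb2.S had 2, 0 and 0 reads in dkk embryos and 9, 8 and 2 reads in controls. Both were lower in every pair, and neither was called in the fit with no filter. Other paralogue 2 and 3 rows below the filter were mixed. hoxa3.L was lower in every pair, at no more than 3 reads in a library, and hoxc3.S was lower in 2 pairs and 0 in both embryos of pair 1. By contrast hoxb2.L, hoxd3.L and hoxd3.S were higher in 1 pair each, and hoxc3.L in 2.

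Middle paralogues, which pattern the trunk, were read mainly from cluster B. hoxb4.S had 31, 26 and 5 reads in dkk embryos, against 62, 62 and 34 reads in controls. All dkk embryos were below all controls, and the log2 fold change was -1.57 ± 0.40 (adjusted p = 0.241 by edgeR, Benjamini-Hochberg). hoxb6.S had 73, 108 and 6 reads in dkk embryos and 90, 119 and 50 reads in controls. Its groups overlapped, and its ratios of -0.41, -0.10 and -2.80 in pairs 1 to 3 show that the log2 fold change of -0.92 ± 0.55 rests on pair 3. Without that pair it was -0.25.

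Further along cluster B, hoxb7.S had 13, 15 and 4 reads in dkk embryos and 15, 24 and 8 reads in controls, a log2 fold change of -0.64 ± 0.43. hoxb8.S had 24, 50 and 10 reads in dkk embryos and 23, 55 and 9 reads in controls, with a log2 fold change of -0.07 ± 0.33. For hoxb8.S the embryos of a pair nearly matched while the pairs differed, with pair 2 highest in both groups. The adjusted p-values of hoxb6.S, hoxb7.S and hoxb8.S were 0.788, 0.809 and 0.986 (by edgeR, Benjamini-Hochberg). The L copies were thinly read, with 1, 5 and 6 reads of hoxb7.L and 0, 3 and 0 reads of hoxb8.L in dkk embryos, against 2, 5 and 1 reads of hoxb7.L and 1, 1 and 1 reads of hoxb8.L in controls. hoxb5.S was below the filter, with 10, 8 and 1 reads in dkk embryos and 11, 7 and 9 reads in controls.

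In cluster C, hoxc8.L had 9, 12 and 1 reads in dkk embryos, against 14, 52 and 17 reads in controls. The CPM values did not overlap, and the log2 fold change was -1.96 ± 0.56 (adjusted p = 0.322 by edgeR, Benjamini-Hochberg). Its partner hoxc8.S, below the filter, had 1, 6 and 2 reads in dkk embryos and 6, 34 and 4 reads in controls. For both copies control 2 stood well above the other controls. hoxc5.L had 4, 16 and 0 reads in dkk embryos and 13, 30 and 9 reads in controls, a log2 fold change of -1.68 ± 0.66 (adjusted p = 0.569 by edgeR, Benjamini-Hochberg). hoxc5.S had 0, 0 and 1 reads in dkk embryos and 7, 7 and 1 reads in controls. hoxc5.L overlapped between groups, with dkk embryo 2 above controls 1 and 3 in CPM.

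Of the 5' genes, which pattern the tail and limbs, hoxa9.L alone passed the filter. It had 4, 8 and 13 reads in dkk embryos and 10, 27 and 15 reads in controls, a log2 fold change of -1.12 ± 0.48 (adjusted p = 0.627 by edgeR, Benjamini-Hochberg). Its ratio was nearest to 0 in pair 3, at -0.31, against -1.11 and -1.52 in pairs 1 and 2. The partner hoxa9.S had 0, 5 and 2 reads in dkk embryos and 7, 13 and 7 reads in controls. Paralogues 11, 12 and 13 were barely read. The 6 rows of paralogue 13 summed to 8, 15 and 17 reads in dkk embryos and 11, 9 and 10 reads in controls, and those of paralogue 11 to 8, 13 and 11 reads in dkk embryos and 6, 17 and 14 reads in controls. The mean summed CPM in dkk embryos was 83.3%, 136% and 124% of that in controls for paralogues 11, 12 and 13, against 2.77% for paralogue 1. No test was made on these sums, and at these counts a small difference in either direction could not be seen.

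**Figure D4:**
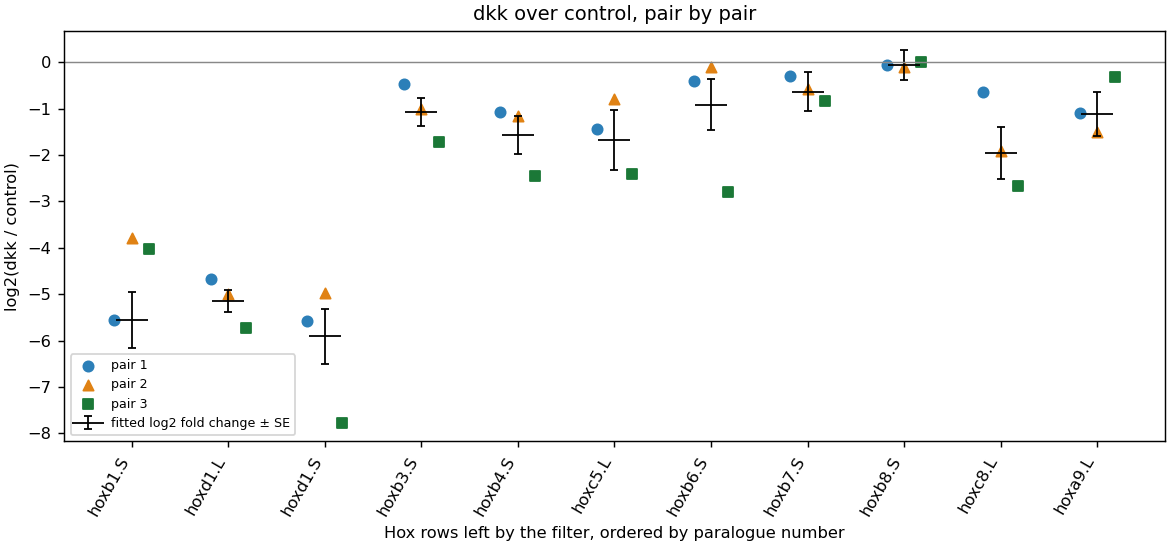
Log2 ratio of dkk over control in each pair (coloured points) and fitted log2 fold change with its SE (black) for 11 of the 13 Hox rows left by the filter, ordered by paralogue number. The rows hoxb1.S, hoxd1.L and hoxd1.S lie between -3.80 and -7.77 in every pair, and the other 8 between -0.00 and -2.80.

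All 13 tested rows were lower in 3 of 3 pairs, beside 13.9% of all tested genes, and 8 of them had every dkk embryo below every control, beside 2.89%. For hoxb8.S the values of pair 3 nearly tied, at 0.4533 CPM in the dkk embryo and 0.4552 CPM in the control. The dkk embryo had 10 reads there and the control 9, so that direction depends on the library scaling. All of the 13 but hoxb3.S and hoxd1.L passed the filter only with control libraries, which favours rows that are high in controls. Among the 8 were hoxb1.S, hoxd1.L, hoxd1.S, hoxb3.S, hoxb4.S and hoxc8.L. Of the 53 rows below the filter, 12 had no read in any library and 44, these included, never reached 10 reads in a library. Of the 41 that had reads, 7 were lower in 3 of 3 pairs, beside 6.66% of all genes with reads below the filter. In 4 of them, hoxa3.S, hoxa7.L, hoxa9.S and hoxc5.S, every dkk embryo was below every control, beside 2.57%.

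Pair 3 held the lowest ratio in 10 of the 13 tested rows, beside 37.8% of all tested genes. Dkk embryo 3 also had the highest dkk1.S level, at 725 CPM against 511 and 473 CPM in dkk embryos 1 and 2. It had 1915 reads of the gastrula gene row gsc.L, against 356 and 215 reads in dkk embryos 1 and 2. For gsc.S it had 1088 reads, against 199 and 352, and for dkk1.L 200 reads, against 45 and 39. Unlike dkk1.S, dkk1.L was lower in the dkk embryo of every pair, with 223, 327 and 346 reads in controls 1 to 3. In t.S dkk embryo 3 did not stand apart, with 4883 reads against 4710 and 3866. The part of these differences in the result was not tested. Control 3 had the lowest summed Hox level of the controls, at 174 CPM, and dkk embryo 3 the lowest of the dkk embryos, at 9.79 CPM. The part of these levels in the ratios of pair 3 was not tested either. The uninjected controls of the 3 matings also differed among themselves. The coefficient of variation over the 3 controls had a median of 42.5% in the 13 tested Hox rows and 24.3% in all tested genes. These sets were not matched for depth, and counting error widens the spread of thinly read rows. The value was highest in hoxb8.S, at 80.7% with 23, 55 and 9 reads in controls. In the well-read hoxd1.S and hoxd1.L it was 16.3% and 20.5%, below the median of all tested genes. Control 3 was the lowest of the controls in 10 of the 13 Hox rows. The share over all tested genes was not computed, so this count is not shown to be particular to Hox rows.

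The L and S copies contributed unevenly by cluster. In cluster B the S copy had more reads in all 8 genes and held 96.7% of the reads over all embryos, with hoxb4.L, hoxb5.L and hoxb6.L at 0 reads in every library. Cluster D stood at 48.8% of reads in S copies, a value set by hoxd1, and its other genes had 71 L and 46 S reads, or 39.3% in S copies. Cluster C stood at 38.1%. In cluster A the copies parted at single genes, with 80 reads in hoxa7.L and 0 in hoxa7.S, and 46 reads in hoxa3.S and 6 in hoxa3.L. In the RefSeq annotation the span of hoxa7.S overlaps that of hoxa3.S, while hoxa7.L overlaps no other matched Hox row. Reads in such an overlap could be lost as ambiguous, so the 0 of hoxa7.S is not shown to be a lower level. Reads that aligned to several places were not counted to a gene, and copies may differ in length, so these shares of reads are not levels per length.

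**Figure D5:**
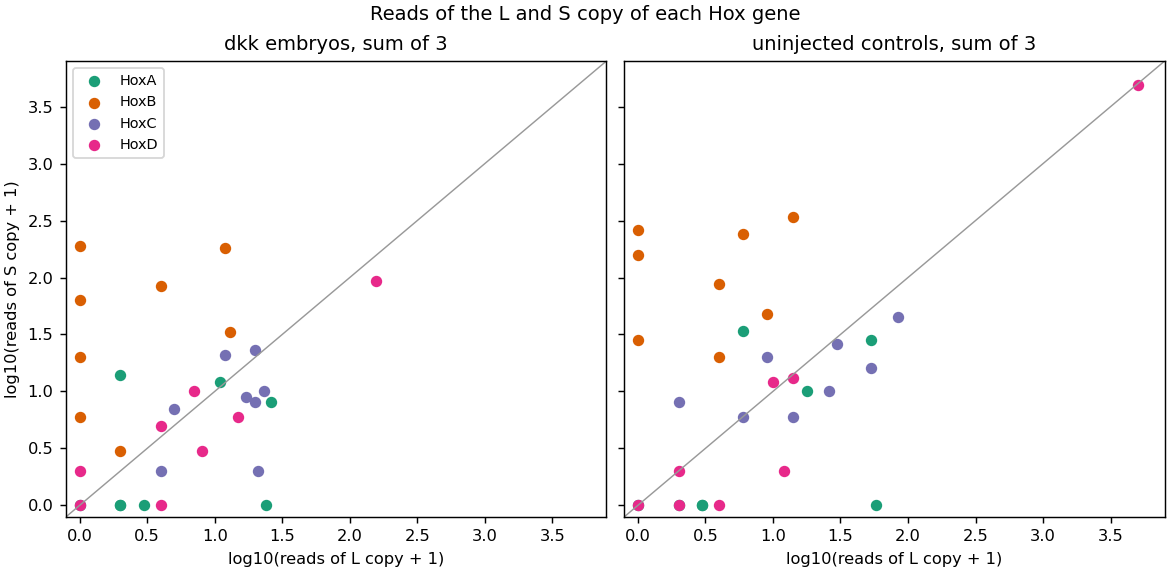
Reads of the L copy (horizontal) and the S copy (vertical) of Hox genes, as log10(reads + 1), summed over 3 dkk embryos (left) and 3 uninjected controls (right), with the line of equal reads. The 8 HoxB genes lie on the S side in controls, and hoxd1 stands at the top right there, near the line.

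Whether dkk changed the copies unequally was tested as the difference of the log2 fold changes of L and S within embryos (edgeR quasi-likelihood test over 6014 gene pairs). Of 12 Hox genes in the fit, 10 could be estimated, since hoxb4 and hoxb6 had no L reads. Among the 10, hoxb1 is uninformative, with 0 L reads in dkk embryos and a 95% interval of -11.98 to 16.35. Intervals were wide for other genes with a thinly read copy too, such as -2.11 to 5.61 for hoxc5 and -2.865 to 2.622 for hoxb8. A lack of calls thus does not show that the copies changed equally. Of the 10, 0 passed, beside 0.249% of all pairs. None of the 10 had an unadjusted p under 0.05, and limma-voom called 0. For hoxd1 the difference of L minus S was 0.81 ± 0.36 (SE; 95% interval -0.04 to 1.65; adjusted p = 0.691 by edgeR, Benjamini-Hochberg), an interval that holds both an equal change of the copies and a larger one in S. For hoxc8 it was 0.13 ± 0.78 (95% interval -1.65 to 1.90).

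The share of hoxd1 reads in the L copy was 66.7% (Wilson 95% interval 57.5% to 74.8%), 51.9% (42.5% to 61.2%) and 84.4% (68.3% to 93.1%) in dkk embryos 1 to 3. In controls 1 to 3 it was 50.8% (49.2% to 52.5%), 52.1% (50.5% to 53.8%) and 49.2% (47.3% to 51.0%). Dkk embryos 1 and 3 lay above the controls and dkk embryo 2 among them, and the intervals cover counting error only.

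Genes known to act on Hox clusters or with Hox proteins were read from lists. Of the caudal-type and other posterior regulators, 6 of 14 tested rows fell, beside 0.467% of all tested genes, 0 rose and 8 did not pass. The 6 were cdx1.L, cdx1.S, cdx2.L, cdx2.S, znf703.L and znf703.S, and the median log2 fold change of the list was -1.43. At an unadjusted p under 0.05 in edgeR, 8 were lower, beside 4.19% of all tested genes. In the other direction 1 was higher, mafb.L at 1.33 ± 0.41, and the share of all tested genes in that direction was not computed. Its partner mafb.S stood at 0.32 ± 0.43. znf703.L, a zinc finger gene of the posterior neural plate, had 3.89 ± 1.47 CPM in dkk embryos and 60.5 ± 11.8 CPM in controls (SD, n = 3 each). cdx2.L had 54.1 ± 17.8 CPM in dkk embryos and 228 ± 37.5 CPM in controls (SD, n = 3 each), with log2 ratios of -1.96, -1.94 and -2.46 in pairs 1 to 3. The caudal-type genes encode homeodomain proteins that activate trunk Hox genes in mouse and frog. cdx4.L, which did not pass, had ratios of -0.93, -1.23 and -3.20 in pairs 1 to 3, and cdx4.S of -1.15, -0.94 and -2.96. The lowest value of both copies was that of pair 3, as in 10 of the 13 tested Hox rows and 37.8% of all tested genes. A link between these genes and the Hox rows was not tested.

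The retinoic acid genes make, break down and sense the signal that opens 3' Hox genes in vertebrates. Of these, 1 of 15 tested rows fell, beside 0.467% of all tested genes, 0 rose and 14 did not pass. The row that fell was the receptor copy rara.S (log2 fold change -1.10 ± 0.14), while rara.L stood at -0.03 ± 0.26. At an unadjusted p under 0.05 in edgeR, 4 of the 15 rows were lower, beside 4.19% of all tested genes, and 3 higher. The share of all tested genes that were higher at that level was not computed. rdh10.1, of a retinol dehydrogenase that makes retinaldehyde, stood at 0.42 ± 0.09 (adjusted p = 0.141), and dhrs3.S, of a reductase that turns retinaldehyde back, at 0.39 ± 0.11 (adjusted p = 0.293 by edgeR, Benjamini-Hochberg). The row rdh10.S lay in the other direction, at -0.14 ± 0.11, and dhrs3.L stood at 0.28 ± 0.12. aldh1a2, which encodes the enzyme that makes retinoic acid in the embryo, stood at -0.82 ± 0.21 in aldh1a2.L and -0.45 ± 0.13 in aldh1a2.S (adjusted p = 0.309 each by edgeR, Benjamini-Hochberg). The median of the list was -0.14. Of the TALE class, homeodomain partners of Hox proteins on DNA, 0 of 5 tested rows of pbx2, pbx3 and meis1 passed with edgeR, DESeq2 or limma-voom, and at the unadjusted level of 0.05 the edgeR count was also 0. Their median log2 fold change was -0.08. pbx2.L stood at 250 ± 78.5 CPM in dkk embryos and 256 ± 28.3 CPM in controls (SD, n = 3 each).

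Among genes that flank the clusters, 0 of 10 tested rows passed with edgeR, while limma-voom called 0 and DESeq2 3. Over all 21985 genes tested with DESeq2, 391 were called in either direction. Without adjustment, 4 were lower in edgeR at p under 0.05, beside 4.19% of all tested genes, and 0 higher. evx1, an even-skipped homeobox gene that follows hoxa13 at the 5' end of cluster A in the RefSeq annotation, stood at 7.88 ± 4.38 CPM in dkk embryos and 20.1 ± 4.01 CPM in controls in its L copy (SD, n = 3 each). Its log2 fold change was -1.49 ± 0.30 (evx1.L, adjusted p = 0.125) and -1.56 ± 0.41 (evx1.S, adjusted p = 0.300 by edgeR, Benjamini-Hochberg). The 5'-most Hox rows next to it, hoxa13.L and hoxa13.S, had at most 2 reads in a library. mtx2, a mitochondrial import gene whose L copy lies near hoxd1.L in the RefSeq annotation, had 2.82 ± 0.542 CPM in dkk embryos and 7.43 ± 0.747 CPM in controls in mtx2.S (log2 fold change -1.40 ± 0.26; adjusted p = 0.0779 by edgeR, Benjamini-Hochberg). Its L copy mtx2.L stood at -0.47 ± 0.18, and hibadh.L and hibadh.S at 0.11 ± 0.11 and 0.01 ± 0.12.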

How the data were processed

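The authors deposited raw read counts per gene for each of 6 single-embryo libraries, with no normalization. The submitters' processing notes list TopHat2, SAMtools and HTSeq. No source used here states versions, strand setting, genome build or annotation. A deposited table of the authors' own comparison holds, per the file headers, a baseMean signal, log2 fold changes and their errors, the statistic (a score) and each p-value, raw and adjusted. The deposited rows without a gene held 25.6% to 28.2% of each library (reads with several alignments 15.9% to 17.6%) and were left out.

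Tests on the counts used edgeR 4.0.16 under R 4.3.3 (TMM, filterByExpr with a minimum count of 10 and total of 15, robust glmQLFit, glmQLFTest, with a block for the mating). Benjamini-Hochberg adjustment ran over all tested genes at 0.05. SE values are implied by the F statistic. The L and S test used 2 columns per embryo and the terms embryo, copy, copy by pair and copy by treatment. The fits were tested on simulated data in which only well-read genes were changed, so that test does not cover the thinly read Hox rows. The pairing comes from the series' design text, and deviations of paired embryos from group means correlated at 0.674, 0.552 and 0.622 in pairs 1 to 3. Each mating gave 1 embryo per group, so the dkk effect was replicated over 3 pairs. The fit moderates the variance of each gene by that of all tested genes, so the p-values do not rest on those pairs alone.

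Alternatives used DESeq2 1.42.0, limma-voom (limma 3.58.1), other scaling, other filters, glmTreat, summed copies and omission of each pair. Hox rows left by the filter, with their L or S partners, were described by their values, except that results of 1 gene are not reported here; hoxa3.S, hoxb2.S, hoxb5.S, hoxa7 and the rows of paralogues 11 to 13 were named after their values were seen, as were members of the other lists beyond the 4 smallest p. The members and gene lists were chosen with earlier results of these data known. Of the 66 Hox rows, 48 matched a symbol of RefSeq's Xenopus_laevis_v10.1, used for names and gene order alone. There the spans of 7 of these rows overlap another Hox row, among them hoxa3, hoxa5 and hoxa7.S. Whether the authors' annotation shares this is not known here, and reads in such overlaps could be lost as ambiguous.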

Additional observations from a re-analysis of the deposited data

How the results depend on the processing

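Without the mating pair as a block, 1 Hox row was called lower in place of 3 (hoxd1.L; 0.0601% of all tested genes were called lower) and 14 genes in place of 124 in all. DESeq2 with the block called 5 Hox rows and 391 genes. With no filter 54 Hox rows were tested and the calls were the same 3 rows (0.643% of all tested genes were called lower), with 343 genes called in all. Leaving out each pair in turn gave 3 to 5 Hox rows and 58 to 659 genes, the highest of both without pair 3 and the lowest count of genes without pair 2. With L and S copies summed, 3 Hox genes were called, hoxb1 and hoxd1 among them (0.382% of all tested genes were called lower). DESeq2 size factors, upper-quartile scaling, a filter of 1 CPM in 3 libraries and glmTreat at a fold of 1.2 gave the same 3 rows. No setting run called a Hox row higher or an unequal change of L and S copies. Of 138 values of the 13 rows under alternatives, 0 changed direction, 5 gained the call and 2 lost it. The cause of these moves was not tested. Sums by paralogue class, with alternatives chosen after seeing the data, moved by less than 1 SD of the pairs. With 3 pairs, omission of 1 pair cannot move the mean further than that, so those settings do not test stability. Under other scaling or a prior count of 0.5 the mean log2 ratio of paralogue 1 was -5.41 to -5.45, against -5.42. Without pair 3 it was -4.87. Depth limits the 53 rows below the filter, of which the fit with no filter called 0.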
